A study of Mus musculus with 6 samples.

Results

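The genes described here encode the ephrins and their Eph receptors, the semaphorins with their plexin and neuropilin receptors, netrin-1 with an Unc5 receptor, and Robo receptors. They were taken by name alone, as the genes whose platform symbol begins with Epha, Ephb, Efna, Efnb, Sema, Plxn, Nrp, Slit, Robo, Ntn or Unc5 followed by a digit or letter. There were 44 such genes among the 8251 that the array measured with a probe set of 1 gene symbol, and each gene was represented by its brightest probe set, judged by the mean of the 6 arrays. They comprised 9 Eph receptors, 8 ephrins, 16 semaphorins, 5 plexins, the neuropilin gene Nrp1, the Robo genes Robo1 and Robo3, the netrin gene Ntn1, and Unc5c. The spelling also took in Unc50, which encodes a Golgi membrane protein and is no netrin receptor. No slit gene was among the members.

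Transcript levels were measured in 3 HDAC1 knockout and 3 wild-type samples of untreated mouse embryonic stem cells, pluripotent cells grown from early embryos, with 1 MG U74Av2 array each. The knockout cells came from embryos without HDAC1, a histone deacetylase that removes acetyl groups from chromatin, and the wild-type cells from embryos of the same litter. The labels number the samples of each genotype as biological replicates without saying whether these were separate cell lines or cultures, so the errors and p-values measure only how far these arrays lie apart, technical variation included. The culture protocol allows LIF on gelatin or feeder cells without LIF, and the choice made for each sample is not stated.

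Values are signal intensities of probe sets. Differences are log2(signal + 16) in knockout minus wild-type cells by limma, and a gene was called at an adjusted p under 0.05 over all probe sets. Folds were taken from the same scale, so they are not ratios of the printed mean signals. A signal at or under 116.4, the 95th percentile of the 19 probe sets that detect bacterial or yeast control RNAs, is referred to as background, and a genotype is at background where its mean or all of its arrays are. Hdac1 had signals of 118.3, 110.1 and 197.1 in knockout cells and 2323.4, 2199.7 and 2407.8 in wild-type cells, which is 15.16-fold lower (adjusted p = 2.32e-06 by limma). All 10 pluripotency markers listed were above background, with a summed signal of 47747.6 to 49090.8 in knockout arrays and 32964.3 to 34714.1 in wild-type arrays. In units of signal, not as a ratio, Nanog differed most (mean 11376.4 in knockout and 5394.3 in wild-type cells). The means of Utf1 (6110.7 and 6180.9) and Tdgf1 (748.0 and 766.0) lay slightly the other way, and Pou5f1 overlapped between the genotypes. The summed signal of 18 feeder fibroblast markers was lower in knockout arrays, 9008.4 to 9566.3 against 13501.4 to 14033.1. Of these markers, Lum, Pdgfrb and Postn were at background in both genotypes. The feeder difference lay mostly in Fbln2 (mean 2565.4 in knockout and 3578.4 in wild-type cells), S100a4 (1766.6 and 2751.6) and Tagln (240.1 and 1048.1). The mean of Col1a2 (1376.3 and 1365.8) lay slightly the other way, and several markers overlapped between the genotypes, Thy1 and Col6a2 among them. Sums were also lower for 5 trophoblast markers (1260.7 to 1412.9 in knockout and 2490.9 to 2681.4 in wild-type arrays, Cdx2 and Tpbpa at background) and higher for 12 neural markers (7061.8 to 8332.9 and 5289.0 to 6148.8, with 6 at background) and 10 primitive endoderm markers (4306.6 to 4810.9 and 2654.4 to 3590.1, Afp, Foxa2 and Ttr at background). Sums of 5 mesoderm markers (393.4 to 990.4 in knockout and 712.6 to 862.0 in wild-type arrays) and 6 endothelial markers (397.1 to 643.1 and 202.9 to 405.1) overlapped between the genotypes. The Y-linked gene Eif2s3y was at background in knockout cells and at 379.3 ± 33.9 in wild-type cells (SD, n = 3), and Xist, the RNA of the inactive X chromosome, was at background in both. The 3' to 5' signal ratio of a control transcript is a measure of RNA and labelling quality. For beta-actin it was 1.04 to 1.09 in knockout arrays and 1.15 to 1.21 in wild-type arrays. For Gapdh it was 0.77 to 0.8 in knockout arrays and 0.8 to 0.81 in wild-type arrays, so these ranges met. The trophoblast difference lay mostly in the keratin genes Krt8 (mean 731.7 in knockout and 1377.2 in wild-type cells) and Krt18 (379.3 and 855.8), while Ascl2 overlapped between the genotypes. The neural difference lay mostly in Tubb3 (4875.2 in knockout and 3494.0 in wild-type cells) and Stmn2 (1790.7 and 1050.0), while the mean of Gap43 (96.0 and 147.6) and that of Pax6, at background in both, lay the other way. Of the primitive endoderm markers, Lama1 differed most in units of signal (1183.6 in knockout and 496.3 in wild-type cells), though not as a ratio. The mean of Lamb1 (600.3 and 633.4) lay the other way, as did those of Foxa2 and Ttr. Of 259 X-linked genes, 52 were called higher and 6 lower in knockout cells (22.4%, against 4.0% of autosomal genes). Differences that go with the sex chromosomes cannot be told apart from those of HDAC1 loss, since both separate the same arrays. In bulk RNA, fewer cells of a type and less RNA per cell cannot be told apart either. The part of the marker, quality and sex-linked differences in the results below was not tested.

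Eph receptors are tyrosine kinases that bind ephrins on neighbouring cells, with signalling in both the receptor-bearing and the ephrin-bearing cell. Ephrin-A proteins are held in the membrane by a GPI anchor and ephrin-B proteins span it. Class 3 semaphorins are secreted and act mostly through neuropilins and plexins, while classes 4 to 7 stay on the membrane and most of them bind plexins directly. Netrins act through DCC and UNC5 receptors and slits through Robo receptors. These systems are best known from the steering of axons, vessels and migrating cells, and several of them also act in early embryos, where they sort cells and set borders between tissues.

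In HDAC1 knockout cells, 3 guidance genes were called lower: the ephrin-B gene Efnb2 and the secreted semaphorin genes Sema3e and Sema3f. Of these, Sema3f was at background in both genotypes. No member was called higher. The 3 called genes are 6.8% of the 44, where 4.58% of all genes were called in either direction (2.70% higher and 1.88% lower). Over all probe sets, 3.88% were called (2.25% higher and 1.63% lower). The median log2 difference was -0.08 over the 44 members and -0.04 over all genes. At an unadjusted p under 0.05 there were 6 members (13.6%), against 17.1% of all genes. The arrays of the genotypes did not overlap for 9 members (20.5%), 8 of them lower and 1 higher in knockout cells, against 22.4% of all genes, with 12.1% lower and 10.3% higher. Over all probe sets, 20.6% did not overlap, 9.40% higher and 11.2% lower. These shares are near those of the array, so what follows concerns single members.

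**Figure D1:**
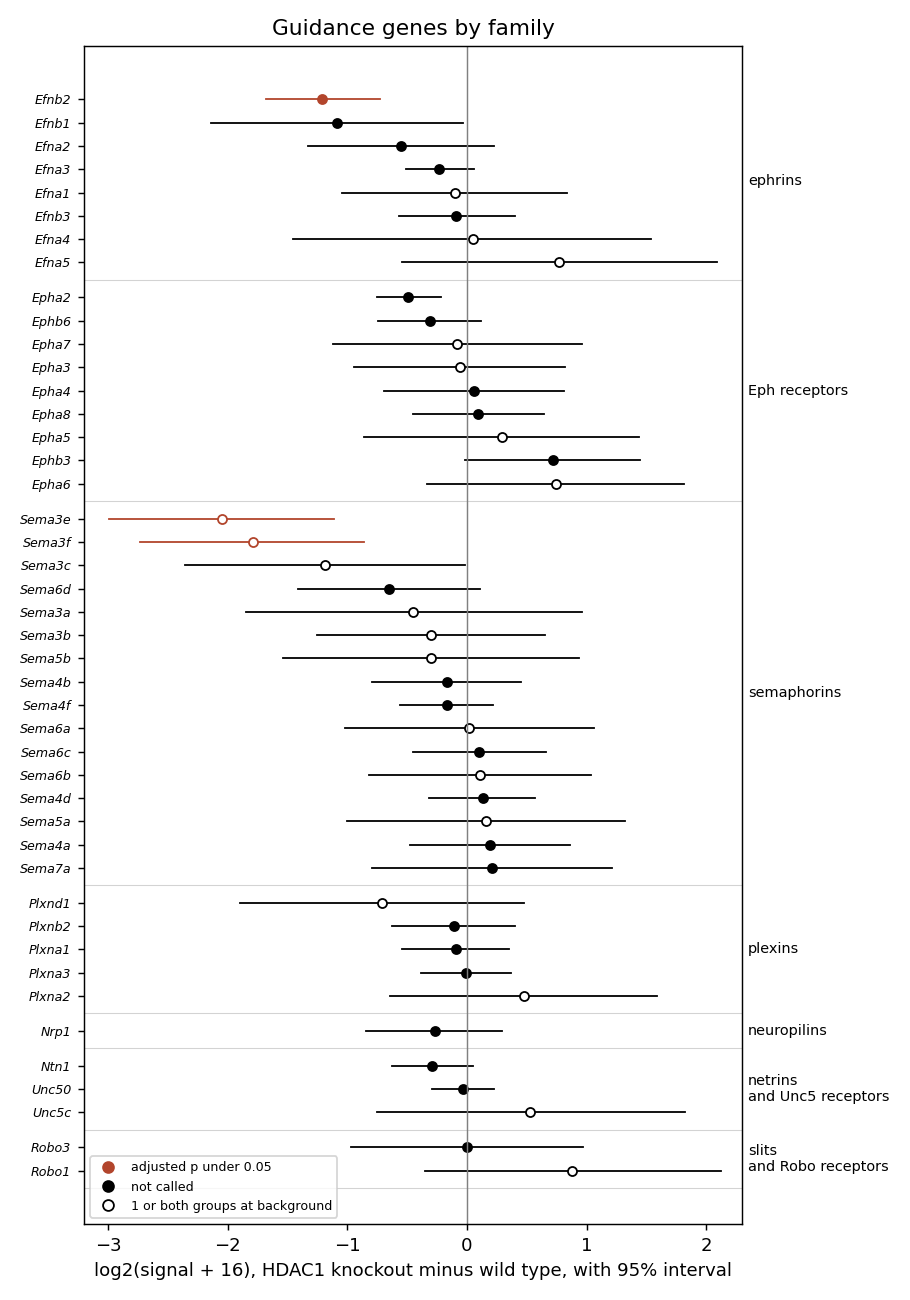
Log2 difference of signal + 16, HDAC1 knockout minus wild type, for the 44 guidance genes by family, with limma's 95% intervals (3 arrays per genotype). Red marks the called genes Efnb2, Sema3e and Sema3f, and open circles mark genes at background in 1 or both genotypes, which have wide intervals.

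Many of these genes were dim in stem cells of either genotype. Of the 44, 17 (38.6%) were at background in both, against 27.7% of all genes, and these give no fold: Epha3, Epha5, Epha6, Epha7, Efna1, Efna4, Efna5, Plxna2, Plxnd1, Robo1, Sema3a, Sema3b, Sema3c, Sema3f, Sema5a, Sema6a and Sema6b. Sema3e and Sema5b were at background in knockout cells alone and Unc5c in wild-type cells alone, which leaves 24 members measured in both genotypes. For Sema5b in wild-type cells (mean 123.7) and Unc5c in knockout cells (mean 116.6), 2 of the 3 arrays were at background. In both cases 1 array lifted the mean over the level of 116.4. Between 24 and 25 members were above background on each knockout array and between 26 and 28 on each wild-type array. This count was not made for all genes. The median signal of all probe sets was also lower on knockout arrays (186.6 to 199.3) than on wild-type arrays (199.6 to 206.8). The standard error of the log2 difference was 0.12 to 0.48 for the members measured in both genotypes and 0.40 to 0.68 for those at background in both. Of the 23 members measured in both and not called, 18 had a 95% interval within 1 log2 unit of zero on either side, so a change of that size lies outside the interval for these 18 and not for the other 5.

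The promoters of the called genes Efnb2 and Sema3e are printed beside those of the Eph receptor genes Epha2 and Ephb3, whose arrays did not overlap, so that the proximal sequence can be read with the values. Each is the 250 bases before the annotated start, 5′ to 3′ on the gene's strand, from RefSeq on GRCm38.p6. Capitals mark GC boxes, the letters GGGCGG or their reverse complement CCGCCC, which are bound by Sp1 family factors. The sequences are from chr8:8661243-8661492 on the minus strand for Efnb2, chr5:14025026-14025275 on the plus strand for Sema3e, chr4:141300971-141301220 on the plus strand for Epha2 and chr16:21204545-21204794 on the plus strand for Ephb3.
Efnb2: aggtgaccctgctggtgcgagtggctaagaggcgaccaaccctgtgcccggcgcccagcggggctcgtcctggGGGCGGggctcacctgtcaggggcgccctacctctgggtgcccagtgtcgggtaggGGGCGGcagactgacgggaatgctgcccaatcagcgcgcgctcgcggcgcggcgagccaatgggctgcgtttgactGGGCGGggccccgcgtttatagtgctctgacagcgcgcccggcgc
Sema3e: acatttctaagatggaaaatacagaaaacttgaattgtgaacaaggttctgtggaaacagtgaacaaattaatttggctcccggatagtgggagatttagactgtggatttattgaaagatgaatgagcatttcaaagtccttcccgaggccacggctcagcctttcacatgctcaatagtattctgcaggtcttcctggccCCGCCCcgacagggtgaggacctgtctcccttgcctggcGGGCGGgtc
Epha2: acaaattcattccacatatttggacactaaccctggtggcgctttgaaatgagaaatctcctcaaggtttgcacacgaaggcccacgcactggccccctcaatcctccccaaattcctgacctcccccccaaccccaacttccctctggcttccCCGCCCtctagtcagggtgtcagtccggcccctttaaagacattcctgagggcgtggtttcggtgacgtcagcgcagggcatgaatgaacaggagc
Ephb3: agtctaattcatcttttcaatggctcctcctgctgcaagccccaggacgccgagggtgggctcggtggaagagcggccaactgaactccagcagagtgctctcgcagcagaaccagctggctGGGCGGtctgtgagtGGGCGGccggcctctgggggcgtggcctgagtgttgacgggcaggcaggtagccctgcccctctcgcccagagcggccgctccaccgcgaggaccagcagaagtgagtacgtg
The Efnb2 window has 3 GC boxes, 27 CpG dinucleotides and a G + C content of 72.0%, and that of Sema3e 2 boxes, 7 CpG and 48.0%. The window of Epha2 has 1 box, 9 CpG and 55.6%, and that of Ephb3 2 boxes, 16 CpG and 65.6%. RefSeq promoters were found for 38 of the 44 genes, 51 promoters in all, of which 74.5% held a GC box, against 52.8% of the 8412 promoters of all genes on the array and 32.7% of all 32851 promoters. The median G + C content was also higher in the member promoters than in promoters of all genes on the array (58.8%) and in all promoters (52.4%). The GC box is made of G and C alone, and the part of base composition in these shares was not tested. A match describes the letters of the window and shows no binding.

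Among the ephrins, 1 of the 3 ephrin-B genes was called lower in knockout cells and none of the 5 ephrin-A genes was called. Efnb2, a transmembrane ligand of EphB receptors and of EphA4, had signals of 196.4, 152.2 and 210.9 in knockout cells, against 485.9, 424.9 and 434.9 in wild-type cells. The groups were far apart, and every knockout array stayed above background. Efnb2 thus averaged 186.5 ± 30.6 in knockout and 448.6 ± 32.7 in wild-type cells (SD, n = 3 each), 2.31-fold lower in knockout cells, with a log2 difference of -1.21 ± 0.21 (SE, adjusted p = 0.0102 by limma). It was called in 18 of 19 other settings and missed the threshold without wild type replicate 1 (log2 difference -1.15, adjusted p = 0.0614).

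Efnb1, the X-linked ephrin-B gene, had signals of 237.2, 47.0 and 222.4 in knockout cells and 328.7, 302.5 and 315.0 in wild-type cells. All knockout values lay under all wild-type values, with HDAC1 knockout replicate 2 far below the other two. Its log2 difference of -1.09 ± 0.48 (SE) was not called (adjusted p = 0.311 by limma), and without that array the difference was -0.43 (adjusted p = 0.528). The median log2 difference of X-linked genes exceeded the autosomal median by 0.27, a value that describes the chromosome and no single gene. The part of the sex chromosomes in the Efnb1 difference was not tested. Efnb3, described beside the other ephrin-B genes after its values were seen, had signals of 351.1, 616.6 and 514.9 in knockout cells and 484.0, 440.2 and 631.1 in wild-type cells. Its groups overlapped (log2 difference -0.09, 95% interval -0.57 to 0.40), and its other probe set, at 221.0 ± 8.1 and 284.8 ± 75.9 (SD, n = 3 each), was not called either.

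Of the 5 ephrin-A genes, Efna2 and Efna3 were above background and neither was called. Efna3, a GPI-anchored ligand, had signals of 1036.7, 1444.8 and 1430.3 in knockout cells and 1537.8, 1455.4 and 1541.8 in wild-type cells. The groups did not overlap, but knockout replicates 2 and 3 lay just under the lowest wild-type array, and the log2 difference was -0.23 ± 0.13 (SE, adjusted p = 0.461 by limma). Efna2 had signals of 113.7, 283.7 and 128.6 in knockout cells and 221.0, 249.2 and 263.2 in wild-type cells. Knockout replicate 2 was the highest of all 6 arrays while the other knockout arrays were the lowest (log2 difference -0.55 ± 0.35, adjusted p = 0.531 by limma). Efna1, Efna3 and Efna4 lie next to each other on chromosome 3 with no other protein-coding gene between them in RefSeq, and of the 3 only Efna3 was above background.

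Among the Eph receptors, the receptor genes Epha2 and Ephb3 had arrays that did not overlap, in opposite directions, and neither was called. Epha2, a receptor for ephrin-A ligands known from epithelia and from stem cells, had signals of 1350.3, 1174.8 and 1150.5 in knockout cells and 1480.4, 1748.4 and 1958.9 in wild-type cells. It averaged 1225.2 ± 109.0 in knockout and 1729.2 ± 239.8 in wild-type cells (SD, n = 3 each), a log2 difference of -0.49 ± 0.12 (SE, adjusted p = 0.0511 by limma), just short of the threshold. It was called in 6 of 19 other settings, among them the test over genes in place of probe sets (adjusted p = 0.0393) and quantile normalization (adjusted p = 0.0470).

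Ephb3, a receptor for ephrin-B ligands, had signals of 209.5, 255.6 and 210.6 in knockout cells, against 169.4, 86.3 and 149.0 in wild-type cells. It was the only one of the 9 non-overlapping members that was higher in knockout cells, with a log2 difference of 0.72 ± 0.33 (SE, adjusted p = 0.339 by limma). Ephb6, an Eph receptor without kinase activity, had signals of 453.3, 392.9 and 469.3 in knockout cells and 507.1, 442.4 and 725.7 in wild-type cells (log2 difference -0.31, adjusted p = 0.510 by limma). Its groups overlapped, with wild type replicate 3 well above the rest. The other Ephb6 probe set was at background in both genotypes, with means of 51.4 in knockout and 68.7 in wild-type cells. Epha8 (log2 difference 0.09, 95% interval -0.45 to 0.64) and Epha4 (0.06, 95% interval -0.69 to 0.81, chosen after its values were seen) completed the 5 receptors above background, and Epha3, Epha5, Epha6 and Epha7 were at background in both genotypes.

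**Figure D2:**
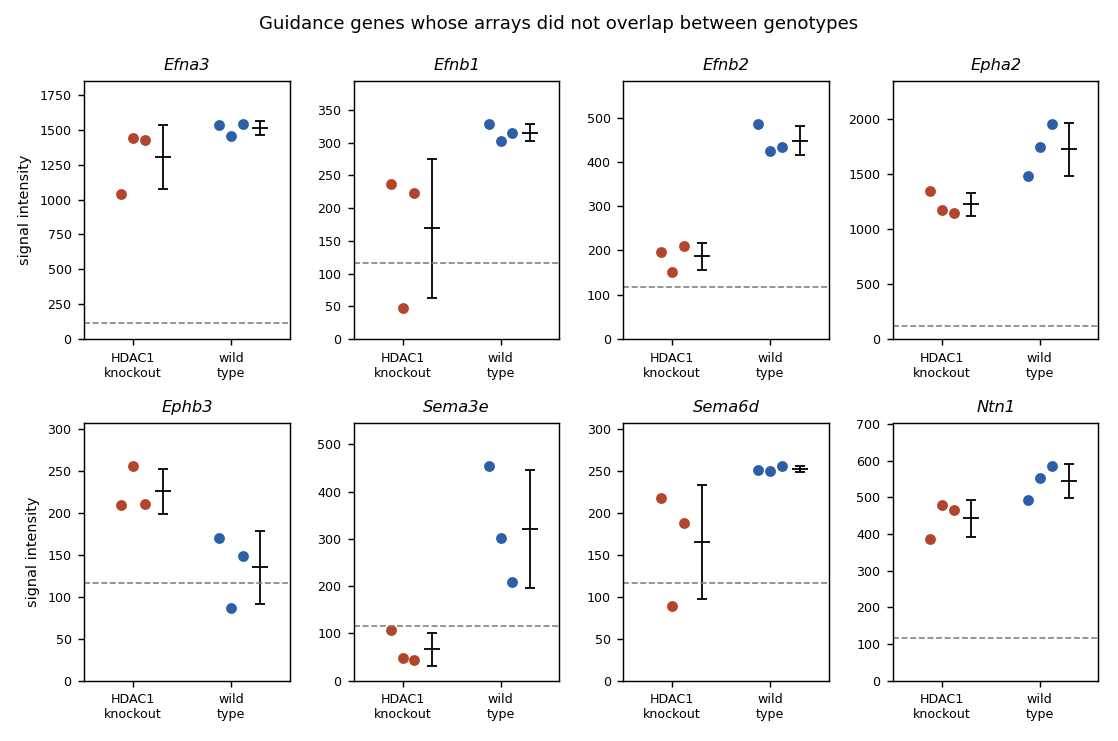
Signal intensity on each array of the 8 guidance genes above background whose arrays did not overlap between HDAC1 knockout (red, left) and wild-type cells (blue, right), with mean and SD of 3 arrays and the background level of 116.4 as a dashed line. Ephb3 is higher in knockout cells and the other 7 are lower, with HDAC1 knockout replicate 2 far below its group for Efnb1 and Sema6d.

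Sema3e, which encodes a secreted semaphorin that signals through plexin-D1, had signals of 107.3, 47.4 and 44.5 in knockout cells, against 454.3, 301.9 and 207.9 in wild-type cells. All knockout arrays were at background and all wild-type arrays above it, although the wild-type values themselves spread widely. With each knockout array set to the background level, Sema3e was at least 2.43-fold lower in knockout cells (log2 difference of the measured values -2.05 ± 0.42 SE, adjusted p = 0.0241 by limma). It was called in 13 of the 18 other settings that tested it, not without a variance trend (adjusted p = 0.102), and not without HDAC1 knockout replicate 2 or 3 or wild type replicate 1 or 2 (adjusted p = 0.0878, 0.0838, 0.123 and 0.0847). Its receptor gene Plxnd1 was at background in both genotypes, with 16.1, 38.3 and 42.4 in knockout cells and 29.8, 46.4 and 140.5 in wild-type cells.

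Sema3f, a secreted ligand of neuropilin-2 in complexes with A-type plexins, had signals of 20.8, 27.4 and 10.9 in knockout cells and 126.2, 106.7 and 86.1 in wild-type cells. The groups were well separated, but the wild-type mean of 106.3 ± 20.1 (SD, n = 3) lay under the background level, and 1 wild-type array exceeded it. No fold is therefore given for this called gene (adjusted p = 0.0436 by limma). The call was kept in 7 of the 18 other settings that tested it and in none of the 6 fits with an array left out, where the adjusted p reached 0.172.

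All 5 class 3 semaphorin genes had lower values in knockout cells on the fitted scale. So did 59.1% of the 44 members and 54.7% of all genes. Of the 5 class 3 genes, 4 were at background in both genotypes. The other 3, which were not called, were Sema3c (log2 difference -1.19, adjusted p = 0.316 by limma), Sema3a (-0.45, adjusted p = 0.828) and Sema3b (-0.30, adjusted p = 0.832), all chosen after their values were seen. The sign of Sema3a turned without HDAC1 knockout replicate 3 and that of Sema3b without wild type replicate 1, as their leave-one-out differences reached 0.25 and 0.02. In the RefSeq order of protein-coding genes, Sema3a and Sema3e on chromosome 5 have 3 genes between them, and Sema3b and Sema3f on chromosome 9 also have 3. Since Sema3a and Sema3b were at background in both genotypes, their values do not show whether they differ from the called genes near them.

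**Figure D3:**
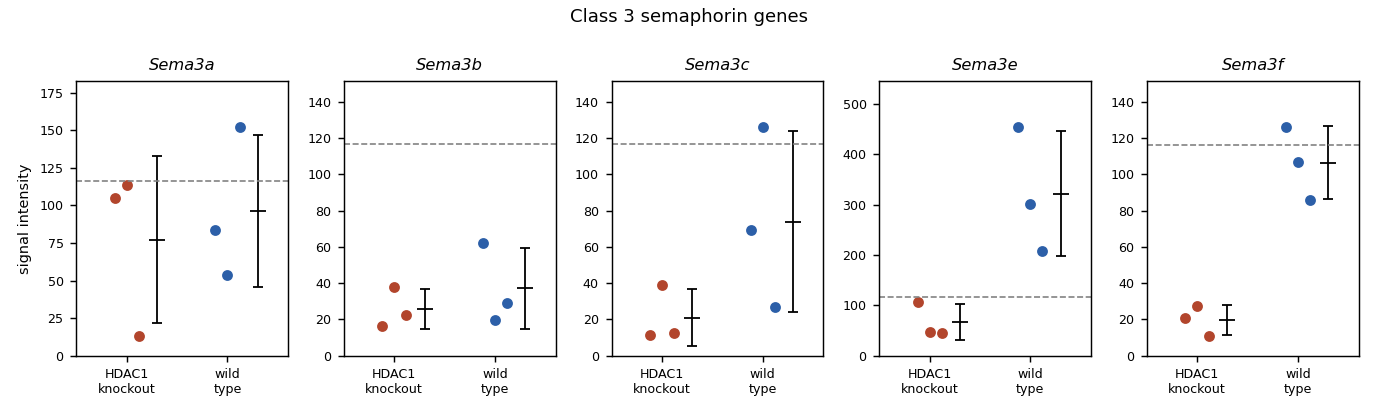
Signal intensity of the 5 class 3 semaphorin genes on each array, HDAC1 knockout (red, left) and wild type (blue, right), with mean and SD of 3 arrays and the background level of 116.4 as a dashed line. The wild-type arrays of Sema3e are all above the line, between 207.9 and 454.3, while nearly all other values are under it.

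The membrane semaphorins of classes 4 to 7 were mostly measured and none of the 11 was called, with a median log2 difference of 0.10. Sema6d, a transmembrane ligand of plexin-A1, had signals of 218.0, 88.6 and 188.2 in knockout cells and 250.9, 250.2 and 256.0 in wild-type cells. The groups did not overlap, with knockout replicate 2 under the background level, and the log2 difference of -0.65 ± 0.34 (SE) was not called (adjusted p = 0.418 by limma). Without that array it was -0.30 (adjusted p = 0.750). Sema4d, the ligand of plexin-B1 also known as CD100, had signals of 661.2, 413.8 and 575.0 in knockout cells and 564.3, 531.3 and 401.3 in wild-type cells, with overlapping groups (log2 difference 0.13, 95% interval -0.32 to 0.57).

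Sema4f had signals of 473.8, 580.7 and 552.2 in knockout cells and 553.4, 511.6 and 776.8 in wild-type cells, again overlapping (log2 difference -0.17, 95% interval -0.56 to 0.22). The remaining measured members of these classes, named after their values were seen, were Sema4a (log2 difference 0.19), Sema4b (-0.17), Sema6c (0.10) and Sema7a (0.21), none called (adjusted p from 0.855 to 0.919 by limma). Each of these 4 changed sign when some single array was left out. Sema7a, which encodes the GPI-anchored semaphorin, had 83.7, 223.8 and 192.3 in knockout cells and 84.5, 127.3 and 208.8 in wild-type cells. Its other probe set had 143.8, 137.3 and 72.1 in knockout cells and 164.4, 183.1 and 159.0 in wild-type cells, with no overlap and the opposite sign (log2 difference -0.51, adjusted p = 0.585 by limma), so that the probe sets of this gene disagree. Sema5b had 139.3, 57.8 and 63.1 in knockout cells, with a mean at background, and 239.3, 56.3 and 75.4 in wild-type cells, with replicate 1 the highest of each genotype.

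None of the 5 plexin genes nor Nrp1 was called, and the 4 of them above background had small differences. Plxna3, an X-linked receptor subunit for class 3 semaphorins, had signals of 605.4, 535.3 and 698.0 in knockout cells and 630.1, 497.8 and 729.9 in wild-type cells. The groups were nearly the same (log2 difference -0.01, 95% interval -0.38 to 0.37, and 0.07 after median centring). Plxna1 had 293.1, 435.7 and 419.5 in knockout cells and 453.5, 355.5 and 408.1 in wild-type cells (log2 difference -0.09, 95% interval -0.54 to 0.35). Plxnb2, a receptor for class 4 semaphorins, had 718.9, 493.7 and 497.1 in knockout cells and 643.0, 815.6 and 427.8 in wild-type cells (log2 difference -0.11, 95% interval -0.63 to 0.40), and its other probe set had a difference of 0.05. The coreceptor gene Nrp1 had 204.7, 205.9 and 181.0 in knockout cells and 266.5, 261.4 and 200.7 in wild-type cells, where the lowest wild-type array fell among the knockout arrays (log2 difference -0.27, 95% interval -0.84 to 0.29). All 4 intervals exclude a change of 1 log2 unit in either direction.

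Ntn1, the secreted ligand netrin-1, had signals of 385.4, 478.0 and 464.3 in knockout cells and 493.9, 553.8 and 585.5 in wild-type cells. The groups did not overlap, although knockout replicate 2 came close to wild type replicate 1, and the log2 difference of -0.29 ± 0.15 (SE) was not called (adjusted p = 0.420 by limma). The netrin receptor gene Unc5c varied in knockout cells, at 90.2, 212.7 and 47.0, and had a mean at background in wild-type cells, at 42.2, 44.9 and 126.4 (log2 difference 0.53, adjusted p = 0.748 by limma). Robo3, a divergent Robo receptor, had 145.4, 144.5 and 93.6 in knockout cells and 149.2, 65.5 and 194.6 in wild-type cells, with full overlap and a log2 difference of 0.00 ± 0.44 (SE). Unc50 had 1229.7, 1459.9 and 1121.6 in knockout cells and 1384.2, 1329.0 and 1171.2 in wild-type cells (log2 difference -0.03, 95% interval -0.29 to 0.23).

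Several members had more than 1 probe set, which gave 13 other probe sets for 12 genes. None of the 13 was called by limma, 8 were at background in both genotypes and 5 had the opposite sign to the brightest probe set. Those at background included the other probe sets of Epha4, Ephb6, Nrp1, Ntn1 and Sema4a, whose brightest probe sets were above it. Efnb2, Sema3e, Sema3f and Epha2 each had 1 probe set, so no other probe set bears on their values.

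Of the listed coreceptors, partners and signalling effectors of these receptors, 57 of 80 were measured, with 1 called higher and 4 called lower in knockout cells. These 5 are 8.8% of the 57, against 4.58% of all genes, with a median log2 difference of -0.06. The list was chosen with earlier results of these data known, and the difference between the shares was not tested. Cap1, an actin-monomer binding protein of the cyclase-associated family, had signals of 544.9, 624.5 and 580.4 in knockout cells and 276.9, 292.0 and 286.4 in wild-type cells. It was 1.99-fold higher in knockout cells (adjusted p = 0.00512 by limma) and called in all 19 other settings. Grb10, an adaptor reported to bind Eph receptors among other receptors and an imprinted gene, had 99.1, 155.6 and 134.3 in knockout cells and 867.7, 950.1 and 1085.1 in wild-type cells, 6.82-fold lower (log2 difference -2.77, adjusted p = 3.18e-05 by limma). It was also called in all 19, but its size depends on the probe set: averaged over its probe sets, the log2 difference was -1.57 (adjusted p = 0.0214 by limma).

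Crmp1, a cytoplasmic mediator of class 3 semaphorin signals, had signals of 594.7, 630.7 and 457.5 in knockout cells and 852.2, 841.4 and 842.3 in wild-type cells. It was 1.51-fold lower in knockout cells (adjusted p = 0.0462 by limma). Abl1, a kinase downstream of Robo and Eph receptors, had 541.1, 463.0 and 499.8 in knockout cells and 725.5, 699.5 and 810.6 in wild-type cells, 1.47-fold lower (adjusted p = 0.0428 by limma). Itgb1, the integrin beta-1 chain through which Sema7a acts, had 4747.4, 4487.1 and 4224.2 in knockout cells and 5943.6, 5557.4 and 5513.9 in wild-type cells, 1.26-fold lower (adjusted p = 0.0401 by limma). For all 3 genes the groups did not overlap, and all 3 lost their call with any 1 array left out, with adjusted p up to 0.165.

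**Figure D4:**
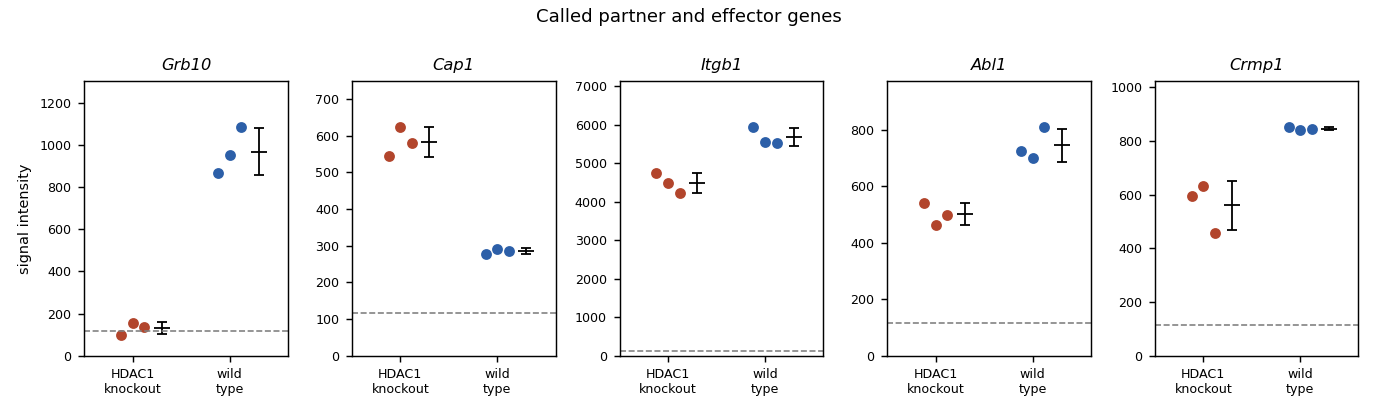
Signal intensity on each array of the 5 called partner and effector genes, HDAC1 knockout (red, left) and wild type (blue, right), with mean and SD of 3 arrays and the background level of 116.4 as a dashed line. Cap1 is higher in knockout cells and the other 4 are lower, with no overlap between the genotypes.

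The calls of the members rest on few arrays. In the 6 fits with an array left out, 1 or 2 members were called lower and none higher, against 3 with all arrays. Efnb2 was the member called in 5 of these 6 fits, Sema3e in 2, Epha2 in 1 and Sema3f in none. With the replicate number as a block, Efnb2 (adjusted p = 0.0321) and Sema3e (adjusted p = 0.0223) were called by limma and Sema3f was not (adjusted p = 0.0896).

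**Figure D5:**
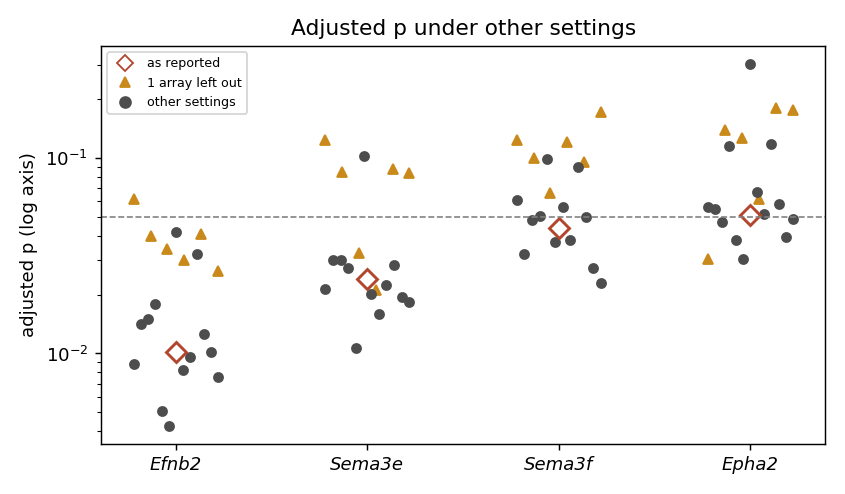
Adjusted p by limma (log axis) of Efnb2, Sema3e, Sema3f and Epha2 as reported (diamond), with 1 array left out (triangles) and in the other settings (circles), with a dashed line at 0.05. Efnb2 stays under the line in 18 of 19 other settings, Sema3e in 13 of 18, Sema3f in 7 of 18 and Epha2 in 6 of 19.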

How the data were processed

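The deposited values are signal intensities per probe set on a linear scale, which the authors computed in MAS5. This comes from the submitters' processing notes, where no version stands. Detection calls were not used here. Trimmed means (2% off each end) were 500.3 on all 6 arrays, so signals were used as deposited, and a change of all transcripts in 1 direction cannot be seen. The experiment headers were identical and show no batches. Of 12488 probe sets, 66 were controls and 12422 were tested. Of these, 10833 had 1 gene symbol in the platform annotation, 396 several and 1193 none, and 10817 matched RefSeq (GRCm38.p6) by identifier.

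Linear models (lmFit and trended eBayes, limma 3.58.1, R 4.3.3) were fitted to log2(signal + 16) over all 6 arrays without covariates, two-sided, with Benjamini-Hochberg adjustment over the 12422 probe sets. This scale understates changes of dim probe sets. Where 1 genotype was at background, the fold is a lower bound with those arrays set to that level, and where both were, none is given. No filter was applied. The code was tested on simulated data. The number of arrays limits the precision.

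Named genes are called members, up to 4 members per family with the smallest p above background, members above background whose groups did not overlap, and called partner genes. The remaining members above background, the other class 3 semaphorins and 4 uncalled partner genes were named after their values were seen. The members and lists were chosen with earlier results of these data known. Alternatives were other pseudocounts (1 and 64), scalings, filters, variance models, array weights, a replicate block, fits without sex-linked genes, per-gene tests, an adjusted p under 0.1 and fits without each array. Deviations of same-numbered arrays correlated at -0.083 to -0.012 and those of differently numbered arrays at -0.031 to 0.077. No pairing by number was seen, but these values cannot show that the samples were unpaired.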

Additional observations from a re-analysis of the deposited data

How the results depend on the processing

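The 3 members called lower became 2 to 4 in the settings that kept all arrays and 1 to 2 with an array left out, and those called higher were 0 throughout. Their median of -0.08 ran from -0.17 to -0.01, and from -0.20 to -0.01 with an array left out. Of the tested probe sets, the calls were 279 higher and 203 lower, against 82 and 50 without a variance trend. With median centring, which moved the median of all probe sets from -0.04 to 0.04, they were 344 higher and 129 lower. There were 119 lower with the replicate block, and 311 lower at an adjusted p under 0.1. With an array left out, 150 to 246 were higher and 98 to 174 lower. The 4 lower partner genes became 1 with median centring, without a trend or with the replicate block, 2 with robust estimation, and 1 to 2 with an array left out, while 1 was higher in every setting. Small differences of uncalled members turned sign: Robo3 (-0.02 with pseudocount 64), Plxna3 (0.07 with median centring and 0.02 with array weights), Unc50 (0.05 with median centring), and Epha4 and Sema7a (-0.16 and -0.15 with the mean of all probe sets). With an array left out, the log2 difference ran from -0.26 to 0.13 for Efnb3, -0.07 to 0.26 for Epha4, -0.19 to 0.08 for Plxna1, -0.15 to 0.12 for Plxna3, -0.36 to 0.09 for Plxnb2, -0.40 to 0.29 for Robo3, -0.82 to 0.25 for Sema3a, -0.54 to 0.02 for Sema3b, -0.05 to 0.55 for Sema4a, -0.40 to 0.08 for Sema4b, -0.02 to 0.31 for Sema4d, -0.29 to 0.00 for Sema4f, -0.66 to 0.25 for Sema5b, -0.06 to 0.31 for Sema6c, -0.07 to 0.60 for Sema7a and -0.14 to 0.05 for Unc50. The cause of these moves was not tested. Efnb1 and Plxna3 have no value without sex-linked genes, and dim members none without the dimmest probe sets. The signal over background limits what can be said of the 17 members at background in both genotypes.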

Other observations

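Among the 57 partner and effector genes, the arrays of the genotypes did not overlap for 15 (26.3%, against 22.4% of all genes), 5 of them higher and 10 lower in knockout cells. Ext1, which encodes a heparan sulfate polymerase whose products bind netrins and slits, had signals of 389.3, 450.5 and 487.2 in knockout cells and 620.9, 679.1 and 617.4 in wild-type cells (log2 difference -0.52, adjusted p = 0.0824 by limma). Yes1, a Src family kinase, had 535.0, 604.0 and 762.9 in knockout cells and 311.6, 508.3 and 399.3 in wild-type cells (log2 difference 0.63, adjusted p = 0.143 by limma). Both were apart in all arrays without a call. Kdr, the VEGF receptor that partners neuropilin-1, had 95.9, 243.1 and 83.4 in knockout cells and 38.4, 28.5 and 52.3 in wild-type cells, at background in wild-type cells (adjusted p = 0.203 by limma). Dpysl4, a relative of Crmp1, had 108.5, 86.7 and 145.7 in knockout cells and 53.6, 30.6 and 53.6 in wild-type cells, with both means at background (adjusted p = 0.267 by limma). These 4 genes were chosen after their values were seen.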
